A study of Mus musculus with 18 samples.

Results

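Type I interferon response genes are the genes that cells switch on after an interferon alpha or beta signal. A list of 35 such genes was followed here, and all 35 were present among the 22049 genes of the count tables. The genes were chosen by name for their known induction by interferon, with earlier results of these data known.

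The series asks how a mammary tumour changes the cells of lung, spleen and an implanted biomaterial scaffold, an implant that host cells enter. Tumour-bearing mice were female BALB/cJ mice that received 2000000 4T1-tdTomato-luc2 cells, a labelled mouse mammary carcinoma line, in the fourth right mammary fat pad. Healthy mice were female BALB/cJ mice of the same ages and days that received no tumour cells. Lungs, scaffolds and spleens were taken on days 7, 14 and 21, at the labelled ages of 9, 10 and 11 weeks, and their cells were measured by Drop-seq, in which each cell shares a droplet with a barcoded bead and each transcript carries a unique molecular identifier (UMI). Each tissue, status and day gave 1 library, so a group of 3 libraries holds 3 different days and a difference on a single day has no test. How many animals went into a library is unknown, and the p-values measure only the spread between libraries.

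Interferon alpha and beta bind the receptor of Ifnar1 and Ifnar2, whose kinases Jak1 and Tyk2 activate Stat2. Stat2 and Irf9 are parts of the factor ISGF3, which binds the interferon-stimulated response element (ISRE) in promoters. The genes followed here include sensors of viral nucleic acid (Ifih1, Ddx58, Dhx58, Zbp1), antiviral effectors (the Ifit, Oas and Oasl genes, Mx2, Rsad2, Bst2, Eif2ak2), the ubiquitin-like protein Isg15 with its protease Usp18, and the regulators Irf7, Irf9 and Stat2. Interferon transcripts could hardly be followed, since 3 of 21 listed interferon genes were in the tables. Over all 18 libraries Ifna13 and Ifnk, type I interferons, had 1 and 3 UMIs, and Ifng, which binds another receptor, had 41 UMIs.

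The ISRE core (GAAA, then 2 bases of any kind, then GAAA, on either strand) was looked for in promoter windows. A window ran from 250 bases before to 50 bases after an annotated start of a gene (RefSeq sequence, GRCm38.p6, 27 of the 35 genes matched). A gene with more than 1 window was counted if any of them held the motif. The core was found for 15 of the 27 genes, 55.6%, against 3.99% of 27025 genes. The GAS motif TTCNNNGAA, searched in the same way, was found for 5 of the 27 genes, 18.5%, against 9.55% of all genes. Parts of 4 promoters, all upstream of the start and read on the gene's strand, are shown because the results below turn on these genes; capitals mark the ISRE core or overlapping cores.
Isg15, chr4:156200830-156200929, minus strand: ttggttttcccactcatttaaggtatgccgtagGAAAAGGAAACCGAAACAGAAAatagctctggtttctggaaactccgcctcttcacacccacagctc
Rsad2, chr12:26456518-26456617, minus strand: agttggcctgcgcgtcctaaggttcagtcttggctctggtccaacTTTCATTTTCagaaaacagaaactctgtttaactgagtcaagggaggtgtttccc
Ifit1, chr19:34640759-34640858, plus strand: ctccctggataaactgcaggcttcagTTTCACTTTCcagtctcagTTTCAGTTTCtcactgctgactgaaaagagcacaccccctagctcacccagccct
Bst2, chr8:71537542-71537641, minus strand: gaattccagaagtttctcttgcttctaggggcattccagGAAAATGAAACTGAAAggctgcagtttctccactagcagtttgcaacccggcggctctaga
Isg15 held 3 overlapping cores, Bst2 held 2 overlapping cores, Ifit1 held 2 separate cores and Rsad2 held 1 core. A match is a string of letters and not a measured binding site.

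The libraries differed in depth and in the cell barcodes they shared. They held 513 to 3415 barcodes and 292765 to 4530115 UMIs, and the 35 genes together had 195 to 8488 UMIs per library. On day 21, 1046 of 7545 distinct barcodes were found in more than 1 library, against 279 of 5684 on day 7 and 103 of 8932 on day 14. In the healthy lung and healthy spleen libraries of day 21, 76.0% and 94.9% of the barcodes were shared with another library, so counts that rest on these libraries are also given without them where they move. Sftpc, which marks alveolar type II cells, was at 0.235 to 700.3 CPM in lung libraries, lowest in the tumour-bearing lung of day 21, and at most 0.436 CPM in scaffold and spleen. The B cell gene Cd79a was at 17.1 CPM in the healthy spleen of day 21, against 714.5 and 979.7 CPM in those of days 7 and 14.

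Over the 3 days scaffolds had the highest mean levels, and on day 21 the level was low in every library but the healthy scaffold and, less so, the tumour-bearing one. The sum of the 35 genes, in UMIs per 1000000 UMIs of the kept cells of a library (counts scaled to depth, CPM), was 1972, 2063 and 1013 in tumour-bearing scaffolds on days 7, 14 and 21, against 2783, 1656 and 2522 in healthy scaffolds. It was 2088, 1694 and 604 in tumour-bearing lungs, against 1120, 1388 and 686 in healthy lungs. In tumour-bearing spleens it was 1600, 807 and 375, against 1356, 1398 and 668 in healthy spleens.
On days 7 and 14 the tumour-bearing lungs lay above the healthy ones, and on day 21 slightly below. The tumour-bearing scaffold was below the healthy scaffold on days 7 and 21 and above it on day 14. Over the 3 days the ranges of tumour-bearing and healthy libraries overlapped in every tissue, with means of 1462 ± 769 CPM in tumour-bearing and 1065 ± 355 CPM in healthy lungs, 1683 ± 582 CPM in tumour-bearing and 2320 ± 590 CPM in healthy scaffolds, and 927 ± 621 CPM in tumour-bearing and 1141 ± 410 CPM in healthy spleens (SD, n = 3 each).

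**Figure D1:**
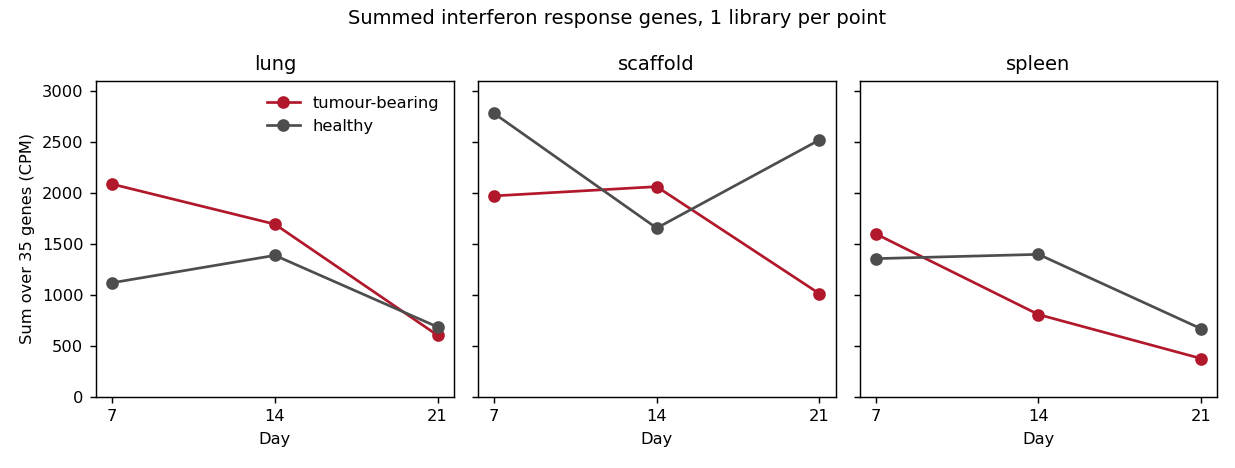
Sum of the 35 interferon response genes in CPM (vertical axis) by day (horizontal axis) in lung, scaffold and spleen; each point is 1 library, tumour-bearing in red and healthy in grey, and lines only join libraries of a group. The tumour-bearing libraries of day 21 lie at 604, 1013 and 375 CPM, below those of days 7 and 14 in each tissue.

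The median over the 35 genes was 44.5, 47.4 and 17.4 CPM in tumour-bearing scaffolds and 62.3, 37.1 and 61.8 CPM in healthy scaffolds on days 7, 14 and 21. In lung it was 46.7, 40.7 and 11.0 CPM with a tumour and 26.1, 36.5 and 13.1 CPM without. In spleen it was 36.1, 18.0 and 7.80 CPM with a tumour and 29.1, 26.6 and 13.7 CPM without.

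**Figure D2:**
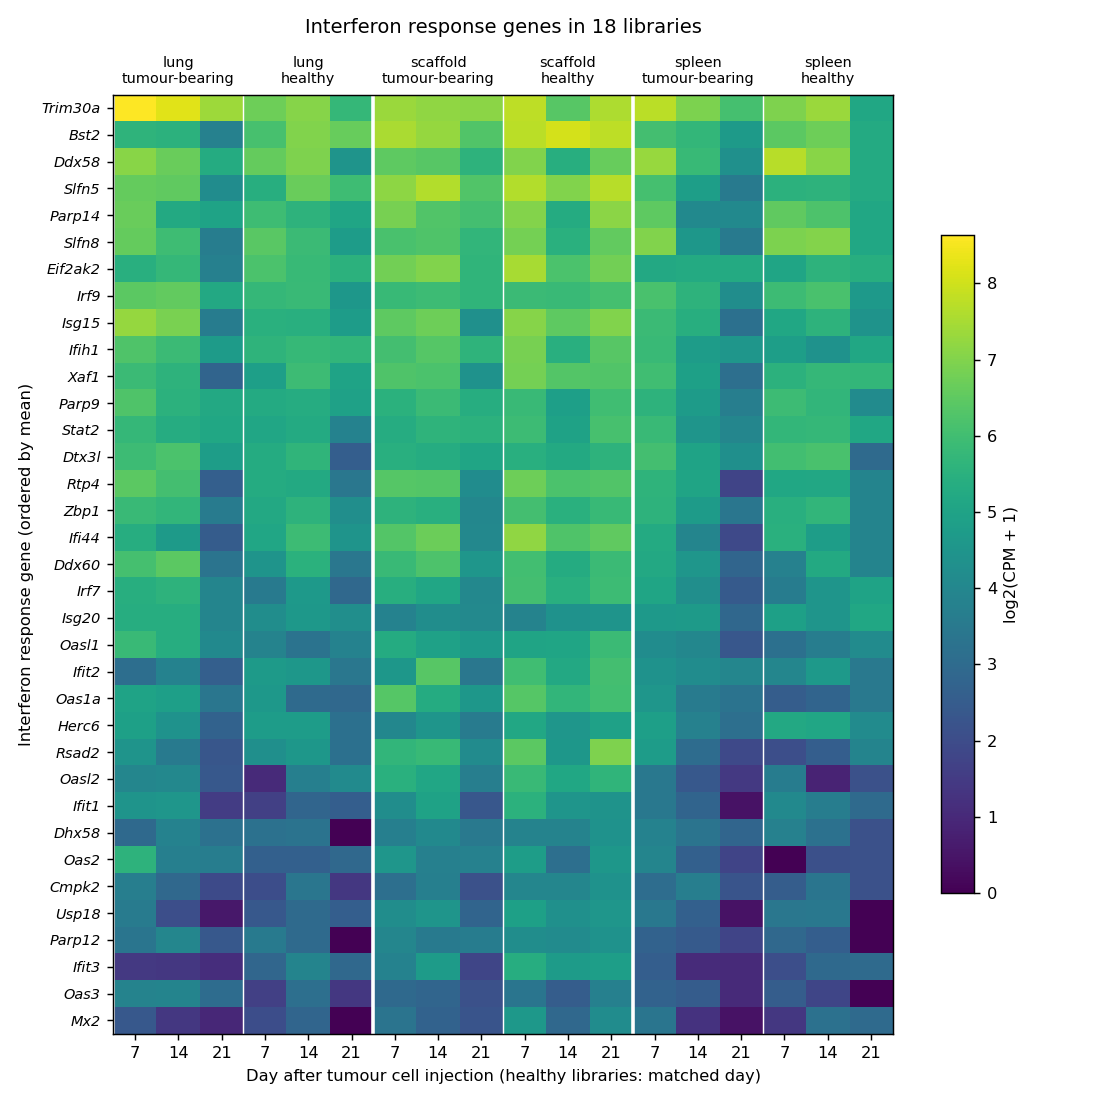
Level of each interferon response gene, as log2(CPM + 1), in the 18 libraries; rows are genes ordered by their mean and columns are days within tissue and status. Trim30a and Bst2 are among the highest rows, and the columns of day 21 are darker except in the healthy scaffold.

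In lung, 4 of the 35 genes rose with the tumour and none fell, where 6.16% of all 11158 genes tested rose, 2.91% fell and 9.07% changed in either direction. They were Trim30a, a regulator of innate signalling, Oasl1, which in mice restrains Irf7 translation, Oas2, a synthetase of the 2-5A messenger that activates RNase L, and Irf9, the DNA-binding part of ISGF3. Their changes were tested with edgeR's quasi-likelihood test, with the day as a block, and adjusted by Benjamini-Hochberg over all genes tested.
Trim30a (chr7:104409025-104465193, GRCm38.p6) had 395, 300 and 162 CPM in tumour-bearing lungs on days 7, 14 and 21, against 105, 134 and 52.4 CPM in healthy lungs. Every tumour-bearing lung lay above every healthy lung, a log2 fold change of 1.83 ± 0.34 (SE, edgeR adjusted p = 0.0062). Trim30a has close copies (Trim30b, Trim30d) with which reads may be shared, so its counts are uncertain.
Oasl1 had 56.9, 40.7 and 16.2 CPM in tumour-bearing lungs against 13.6, 8.69 and 13.1 CPM in healthy lungs. The groups did not overlap, and the log2 fold change was 1.88 ± 0.51 (edgeR adjusted p = 0.0372). Oas2 had 46.7, 12.2 and 11.7 CPM against 5.23, 5.22 and 6.54 CPM, also without overlap, a log2 fold change of 2.11 ± 0.61 (edgeR adjusted p = 0.0475).
Irf9 had 86.6, 93.5 and 36.4 CPM in tumour-bearing lungs against 52.3, 56.5 and 22.9 CPM in healthy lungs. It was higher with the tumour on each day, although the groups overlapped, with a log2 fold change of 0.98 ± 0.27 (edgeR adjusted p = 0.0407).

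Not every gene leaned this way. Bst2 (tetherin), which holds budding virus at the cell surface, had 48.4, 45.6 and 12.9 CPM in tumour-bearing lungs against 67.9, 127 and 96.5 CPM in healthy lungs. All tumour-bearing lungs lay below all healthy lungs, but the log2 fold change of -1.34 ± 0.40 missed the threshold (edgeR adjusted p = 0.0529).
Ifit3, a binder of foreign RNA with the other Ifit proteins and hard to tell from its copy Ifit3b, had 1.70, 1.63 and 1.17 CPM in tumour-bearing lungs against 6.27, 13.9 and 6.54 CPM in healthy lungs. It was near the floor, with 2, 2 and 5 UMIs against 6, 16 and 4 UMIs. Isg15 had 151, 118 and 11.3 CPM with the tumour against 43.9, 42.6 and 26.2 CPM without, above healthy on days 7 and 14 and below on day 21. Irf7, the factor that amplifies interferon production, had 41.6, 46.4 and 14.1 CPM against 10.5, 24.3 and 6.54 CPM, higher on each day.
Rsad2 (viperin) had 21.2, 10.6 and 3.99 CPM in tumour-bearing lungs against 18.8, 22.6 and 8.18 CPM in healthy lungs, with overlap. Stat2 had 52.6, 39.9 and 34.5 CPM against 33.4, 37.4 and 13.1 CPM, higher on each day.

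By day, 29, 21 and 15 of the 35 genes were higher in the tumour-bearing lung on days 7, 14 and 21. These counts compare CPM without TMM factors, and the share of all genes higher on each day is not given here. Over the 35 genes the median log2 fold change was 0.76, where the median of all genes tested was -0.22, and 26 of 35 were positive. With library totals in place of TMM factors these medians were 0.50 and -0.48, and the calls were then Trim30a higher and Bst2 lower. Neutrophil-like cells were 51.6 ± 12.3% of kept cells in tumour-bearing lungs and 4.43 ± 3.65% in healthy lungs (SD, n = 3 each), and the sum of 14 neutrophil markers was 53748 to 186327 CPM with the tumour and 5255 to 6456 CPM without. Its part in the 4 calls was not tested, and in a whole library fewer cells of a type and less RNA per cell cannot be told apart. Without the healthy lung and spleen libraries of day 21, 2 genes rose (Trim30a and Oasl1), and leaving out 1 day at a time left 1 to 4 calls, with Trim30a among them each time. For these fits, and for library totals, the share of all genes called is not given here.

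In scaffold, none of the 35 genes passed the test in either direction, where 0.161% of all genes did. An unadjusted p under 0.05 in edgeR was reached by 3 of the 35, and by 410 of the 11158 genes tested. The median log2 fold change was -0.52, against 0.00 over all genes, and 33 of the 35 were negative. These values rest on day 21: without its libraries the median was -0.10 with 16 of 35 positive, against -0.59 with 8 positive without day 7 and -0.81 with 0 positive without day 14. On day 14 the order turned, with 22 of 35 higher in the tumour-bearing scaffold, against 2 on day 7 and 0 on day 21. These counts by day also compare CPM without TMM factors and lack the share of all genes. Neutrophil-like cells were 18.6 ± 18.5% of kept cells in tumour-bearing scaffolds and 1.44 ± 0.978% in healthy scaffolds (SD, n = 3 each).
Ifit3 had the smallest p, with 13.3, 25.3 and 2.48 CPM in tumour-bearing scaffolds against 40.3, 25.7 and 27.3 CPM in healthy scaffolds, all below healthy, and a log2 fold change of -1.46 ± 0.53 (edgeR adjusted p = 0.816). Isg15 had 88.6, 106 and 19.2 CPM against 133, 89.0 and 127 CPM. Irf7 had 41.2, 33.6 and 15.2 CPM against 64.8, 42.7 and 59.7 CPM.
Irf7 was thus lower with the tumour on each day without overlap, and Isg15 on days 7 and 21. Bst2 had 184, 151 and 77.2 CPM with the tumour against 212, 266 and 218 CPM without, also without overlap. Rsad2 had 50.8, 55.7 and 17.0 CPM against 86.5, 22.7 and 125 CPM, and Stat2 had 39.6, 47.4 and 45.3 CPM against 59.8, 30.5 and 68.6 CPM.
Rsad2 and Stat2 were higher in the tumour-bearing scaffold on day 14 and lower on days 7 and 21. The next smallest p belonged to Herc6, which in mice joins Isg15 to its targets (-0.81 ± 0.33), and to Cmpk2, a mitochondrial nucleotide kinase (-1.08 ± 0.46).

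In spleen, none of the 35 genes passed the test, where 3.31% of all genes did. An unadjusted p under 0.05 in edgeR was reached by 3 of the 35, and by 2007 of the 11158 genes tested. The smallest p belonged to Oas1a, with 22.4, 11.1 and 8.82 CPM in tumour-bearing spleens against 4.85, 5.83 and 10.3 CPM in healthy spleens, a log2 fold change of 1.34 ± 0.54 (edgeR adjusted p = 0.204). It was higher on days 7 and 14 and lower on day 21. Slfn8 of the Schlafen family (-1.07 ± 0.48) and Oas2 (1.81 ± 0.83) followed.
Isg15 had 57.9, 41.9 and 8.14 CPM in tumour-bearing spleens against 33.9, 46.6 and 20.5 CPM in healthy spleens. Irf7 had 32.4, 18.0 and 4.41 CPM against 11.3, 21.6 and 30.8 CPM. Both were higher on day 7 alone.
Bst2 had 64.7, 51.6 and 24.8 CPM with the tumour against 87.3, 105 and 37.7 CPM without, lower on each day. Ifit3 had 4.98, 1.11 and 1.02 CPM against 3.23, 6.66 and 6.85 CPM, and Rsad2 had 26.1, 7.22 and 2.71 CPM against 3.23, 4.99 and 13.7 CPM. Stat2 had 57.2, 21.7 and 14.6 CPM against 51.7, 52.4 and 34.2 CPM. The healthy spleen of day 21 held few UMIs of these genes, with 2 of Ifit3, 3 of Oas1a, 4 of Rsad2, 6 of Isg15 and 9 of Irf7, so the order on day 21 is uncertain.
Of the 35 genes, 25, 10 and 8 were higher in the tumour-bearing spleen on days 7, 14 and 21, again by CPM and without the share of all genes. With library totals the median log2 fold change of all genes in spleen was -0.31. Neutrophil-like cells made up 20.3 ± 11.0% of kept cells in tumour-bearing spleens and 0.697 ± 0.545% in healthy spleens (SD, n = 3 each).

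**Figure D3:**
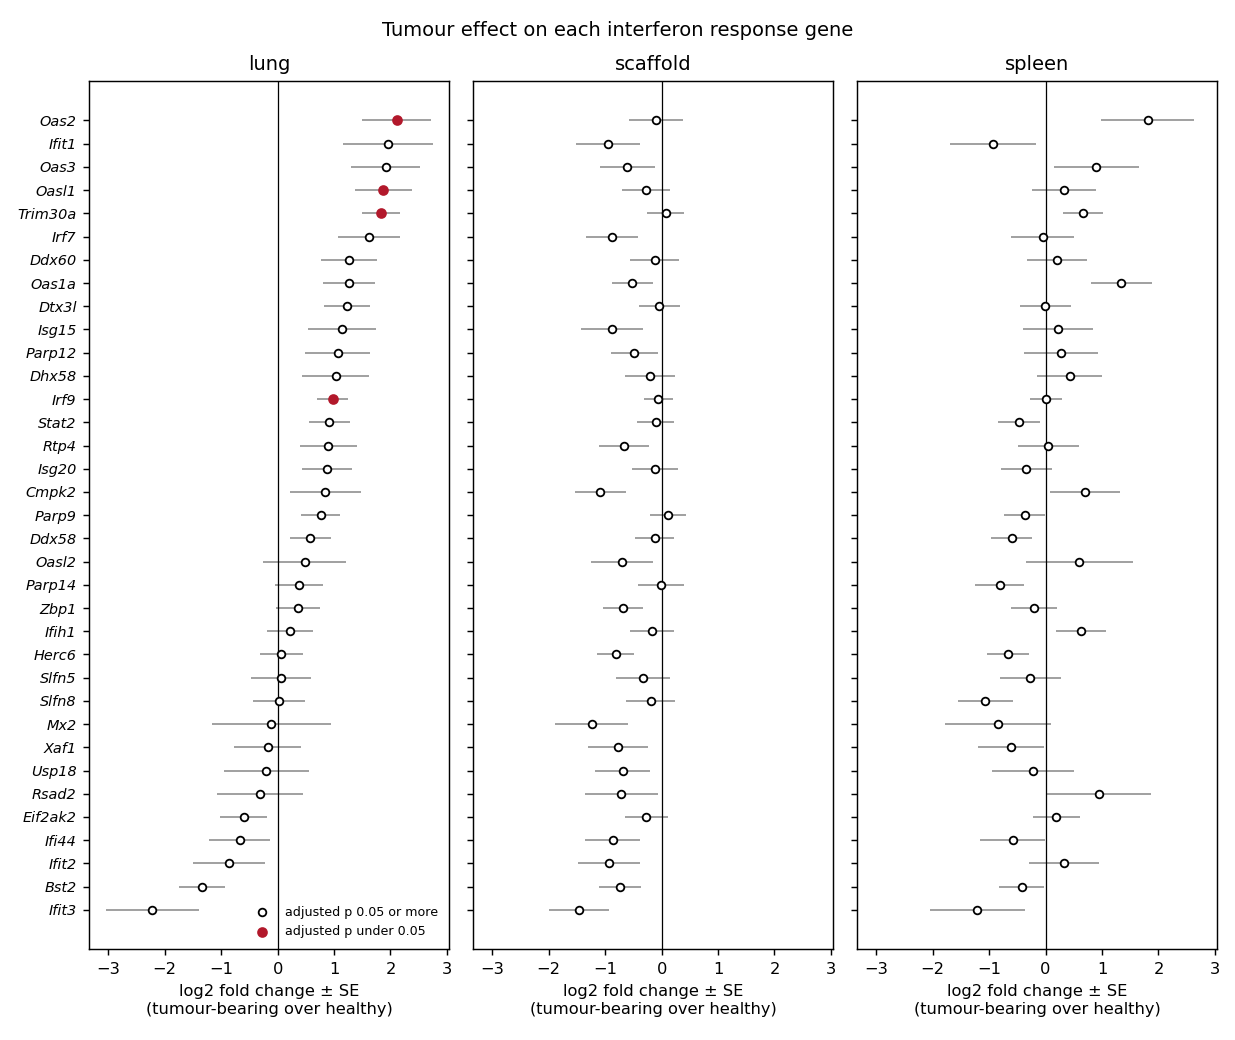
Log2 fold change of each interferon response gene, tumour-bearing over healthy, with its standard error (horizontal axis) in lung, scaffold and spleen; filled points have an edgeR adjusted p under 0.05. The 4 filled points are all in lung (Oas2, Oasl1, Trim30a and Irf9), and in scaffold 33 of 35 points lie left of 0.

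The tumour effect itself was compared between tissues in the same model. None of the 35 genes differed between lung and scaffold, where 0% of all genes did. An unadjusted p under 0.05 in edgeR was found in 13 of the 35, all with the higher effect in lung, and in 1062 of the 11158 genes tested. Trim30a (difference 1.76), Irf7 (2.49 ± 0.72) and Oasl1 (2.15) had the smallest p (edgeR adjusted p = 0.404 for Trim30a and 0.461 for Irf7). Without the filter on low counts 5 genes of the list passed, and DESeq2 called 1. The share of all genes called in those fits is not given here. Between lung and spleen none passed, against 0.0179% of all genes. There 6 had an unadjusted p under 0.05 in edgeR, as did 1114 of the 11158 genes tested. Between scaffold and spleen none passed, against 0% of all genes, with 2 at an unadjusted p under 0.05, as were 846 of the 11158 genes.

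Between tissues, over both statuses, scaffolds held more of these transcripts than lungs. In scaffold 12 of the 35 genes were higher than in lung and 0 lower, where 10.1% of all genes were higher and 10.4% lower. The median log2 difference was 0.79, against -0.04 over all genes.
The largest was Ifit3, at 2.23 ± 0.45 (edgeR adjusted p = 0.0029), with 2.48 to 40.3 CPM over 6 scaffolds and 1.17 to 13.9 CPM over 6 lungs. Usp18, which takes Isg15 off proteins and quiets the receptor, differed by 2.03, Rsad2 by 1.99 ± 0.48 (edgeR adjusted p = 0.0092) and the GTPase Mx2 by 1.77. Oasl2 (1.67), Ifit2 (1.66), Oas1a (1.64 ± 0.29) and Ifit1 (1.55) came next, and Oas1a reads may be shared with its copy Oas1g.
Bst2 differed by 1.49 ± 0.25 (edgeR adjusted p = 0.00093), with 77.2 to 266 CPM in scaffolds and 12.9 to 127 CPM in lungs. Ifi44, Slfn5 and Eif2ak2 (the kinase PKR) also passed, while Irf7 (0.87 ± 0.36), Isg15 (0.67 ± 0.38) and Stat2 (0.37 ± 0.26) did not. Macrophage-like and monocyte-like cells were 37.0% and 14.5% of cells with 400 or more UMIs in tumour-bearing scaffolds, against 3.76% and 6.18% in tumour-bearing lungs, and 43.4% and 19.2% in healthy scaffolds, against 7.23% and 7.13% in healthy lungs. The part of cell make-up in the result was not tested. Leaving out the libraries of day 7 left 3 calls and leaving out day 14 left 2, and the share of all genes called in these smaller fits is not given here.

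Against spleen, 20 of the 35 genes were higher in scaffold and 0 lower, where 16.7% of all genes were higher and 14.1% lower. The median log2 difference was 1.19, against -0.08 over all genes.
Oasl2 differed by 2.93 ± 0.55 (edgeR adjusted p = 0.00094), Rsad2 by 2.81 ± 0.53 (edgeR adjusted p = 0.0010) and Ifit3 by 2.50. Oas1a (2.45 ± 0.32), Slfn5 (2.04), Ifi44 (2.01), Oas2 (1.99) and the ADP-ribosyltransferase Parp12 (1.81) followed. Isg15 (1.46), Irf7 (1.11) and Bst2 (1.52) passed too, while Stat2 did not. B cell-like cells were 0.573% of cells with 400 or more UMIs in tumour-bearing scaffolds, against 17.0% in tumour-bearing spleens, and 0.503% in healthy scaffolds, against 46.7% in healthy spleens. Macrophage-like cells were 37.0% against 3.33% with the tumour and 43.4% against 5.64% without, and the part of this make-up was not tested either.
Leaving out day 14 left 9 calls and leaving out day 7 left 12, again without the share of all genes called. Lung and spleen differed in none of the genes, where 8.03% of all genes differed. An unadjusted p under 0.05 in edgeR was found in 6 of the 35, and in 2727 of the 11158 genes tested. The nearest were Ifih1 (MDA5, a sensor of long double-stranded RNA; 0.85 ± 0.28, edgeR adjusted p = 0.0767), Oas2 (1.46 ± 0.50) and Slfn5 (0.87 ± 0.37).

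By day, over all tissues and both statuses, 10 of the 35 genes were lower on day 21 than on day 7 and 0 higher, where 5.68% of all genes were lower and 7.99% higher. All 35 log2 differences were negative, with a median of -0.73 against 0.04 over all genes. Rtp4, a receptor transport protein (-1.98 ± 0.41, edgeR adjusted p = 0.0078), Ifit1 (-1.78), Ifi44 (-1.72 ± 0.38), Usp18 (-1.59), Slfn8 (-1.43), Ddx58 (RIG-I, -1.39), Isg15 (-1.37 ± 0.41) and Zbp1 (-1.18) fell most, with Oas1a and Herc6 also past the threshold.
When each shared barcode was assigned to a single library, 1 gene was called, without the healthy lung and spleen libraries of day 21 there were 7, and without the libraries of day 14 there were 5. For these 3 settings the share of all genes called is not given here. Day and library preparation cannot be told apart. Between days 14 and 7 none of the genes differed, where 0.439% of all genes did. At an unadjusted p under 0.05 in edgeR stood 2 of the 35, and 1389 of the 11158 genes tested.
A steady drift of the tumour effect over the days, shared by the 3 tissues, was called in none of the 35 genes, where 0.556% of all genes were called. At an unadjusted p under 0.05 in edgeR stood 12 of the 35, and 1708 of the 11158 genes tested. All 12 had a falling effect. The nearest were Xaf1, a partner of the apoptosis inhibitor XIAP (-1.13 ± 0.25 per 7 days, edgeR adjusted p = 0.0528), and Isg15 (-1.06 ± 0.30).

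Which cells carried these transcripts was read from 27 clusters, built without the 35 genes and without the other interferon-stimulated genes and named from marker genes. The names end in "-like" because they rest on RNA alone. The classes come from these same cells, so differences between classes are a description, and "higher" or "lower" there only counts genes past the same threshold.
Plasmacytoid dendritic-like cells, known as the strongest producers of interferon alpha, reached 20 cells in the healthy scaffolds of days 14 and 21 alone, with summed levels of 5818 and 4257 CPM. In the healthy scaffold of day 21 neutrophil-like cells had 6911 CPM and conventional dendritic-like cells 4706 CPM, both above that. Conventional dendritic-like cells had a median of 2657 CPM (1724 to 4706 over 12 libraries), neutrophil-like cells 2401 CPM (395 to 6911 over 12) and monocyte-like cells 2285 CPM (729 to 5482 over 18). Macrophage-like cells had 1747 CPM (957 to 2567 over 16).
These myeloid classes overlapped widely in their ranges. Lymphoid classes had lower medians, with 1368 CPM in T cell-like cells (855 to 2834 over 14 libraries) and 1261 CPM in natural killer-like cells (832 to 2899 over 12). B cell-like cells had 888 CPM (527 to 1084 over 11). The T cell-like and natural killer-like ranges overlapped those of the myeloid classes. Alveolar macrophage-like cells had 796 CPM and neutrophil progenitor-like cells 393 CPM (49.3 to 811 over 9 libraries), the lowest of the named classes.

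**Figure D4:**
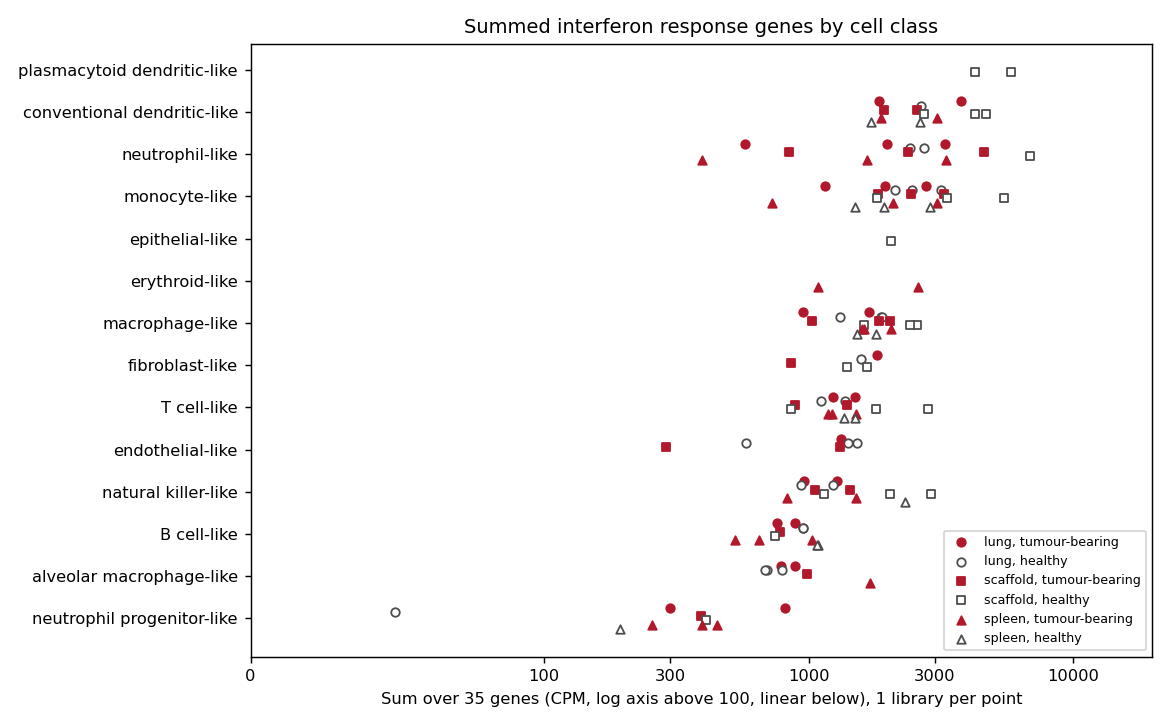
Sum of the 35 genes in CPM (horizontal axis, logarithmic above 100 and linear below) for each cell class; each point is the class in 1 library with 20 or more of its cells, filled red for tumour-bearing and open grey for healthy, with a symbol for each tissue. Neutrophil-like cells span 395 to 6911 CPM, and neutrophil progenitor-like cells lie lowest.

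The classes carried different genes of the list. Of the 35 genes, 17 had counts enough in the class sums. A gene could pass this filter through a few class sums in which it was high. Classes were not compared without the filter, so the counts below describe these 17 genes alone. Against the mean of the other classes, 14 of the 17 were higher in monocyte-like cells (33% of all 3589 genes) and 12 in conventional dendritic-like cells (21.6%), with 0 lower in either (15.2% and 9.72% of all genes).
In monocyte-like cells Ifi44 (log2 difference 2.97), Rsad2 (2.15) and Slfn5 (2.12) stood highest, and in conventional dendritic-like cells Ifi44 (3.51) and Slfn5 (2.12). In macrophage-like cells 10 were higher (35.4% of all genes), with Ifi44 at 2.04 and Bst2 at 1.46, and Ddx58 alone was lower (21.7%).
Neutrophil-like cells had 9 higher (37.8% of all genes) and 4 lower (35.9%). Rsad2 (3.61), Isg15 (3.48), Rtp4 (3.40), the helicase Ddx60 (2.67) and Trim30a (2.24) were higher, while Bst2 (-2.67), Ifi44 (-2.22), Eif2ak2 (-1.16) and Xaf1 (-0.90) were lower.
Neutrophil progenitor-like cells had 0 higher (28.7%) and 12 lower (21.1%), with Slfn5 at -3.44 and Slfn8 at -2.88. B cell-like cells had 2 higher (27.1%) and 9 lower (25.2%), with Ifih1 at -2.79. Alveolar macrophage-like cells had 0 higher (21.1%) and 8 lower (11.7%).

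Within neutrophil-like cells of tumour-bearing mice the level was higher on day 7 than on day 21 in all 3 tissues. The summed level was 3288, 1977 and 577 CPM in lung on days 7, 14 and 21 (378, 507 and 2139 cells), 4618, 2374 and 846 CPM in scaffold (71, 91 and 640 cells) and 3308, 1666 and 395 CPM in spleen (111, 573 and 583 cells). The 3 days did not overlap, with means of 3738 ± 762, 2006 ± 355 and 606 ± 226 CPM (SD over 3 tissues).
Healthy mice gave few such cells, with 2427 and 2727 CPM in lung on days 7 and 14 (54 and 65 cells) and 6911 CPM in scaffold on day 21 (44 cells). The healthy scaffold of day 21 was thus far above the tumour-bearing one of that day, without a test.

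**Figure D5:**
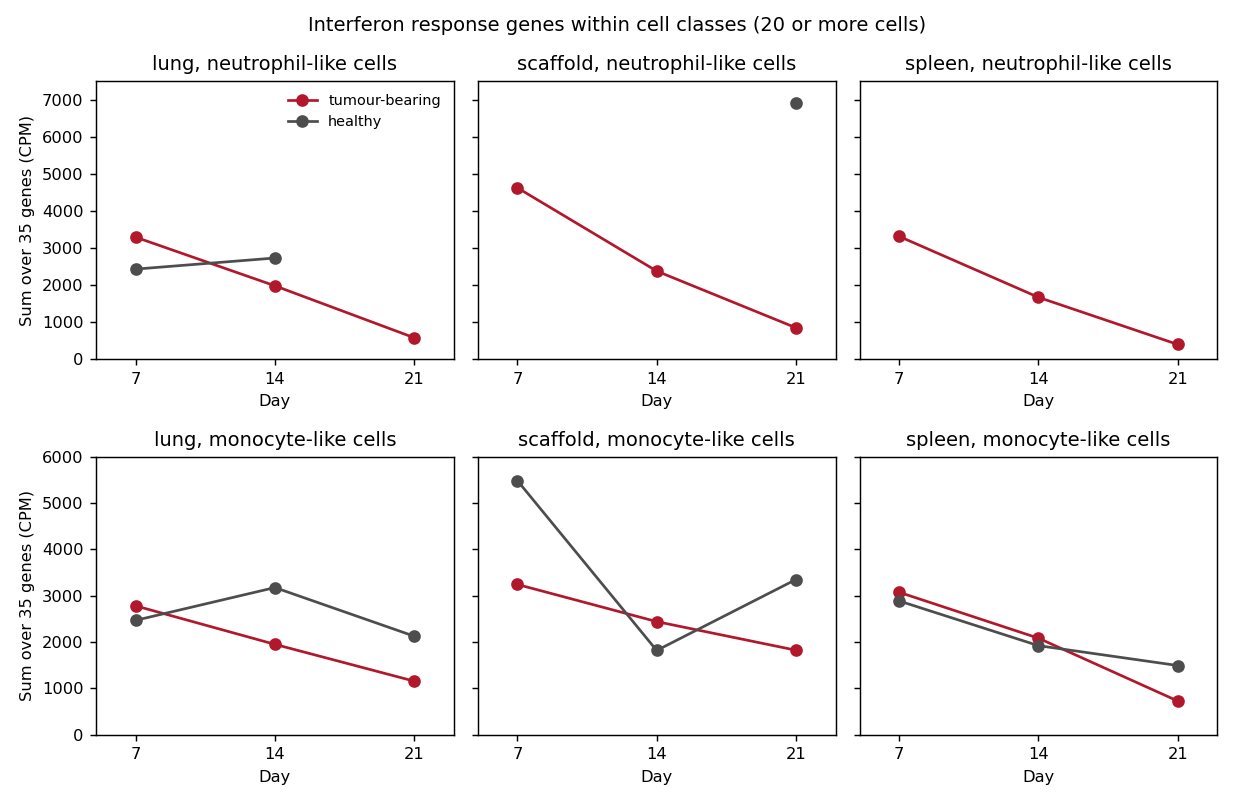
Sum of the 35 genes in CPM (vertical axis) by day (horizontal axis) within neutrophil-like cells (top) and monocyte-like cells (bottom) of each tissue, tumour-bearing in red and healthy in grey; each point is 1 library with 20 or more cells of the class. In tumour-bearing neutrophil-like cells the level on day 21 is 577, 846 and 395 CPM, against 3288, 4618 and 3308 CPM on day 7.

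Gene by gene, Isg15 in neutrophil-like cells of tumour-bearing mice had 426, 183 and 11.5 CPM in lung on days 7, 14 and 21, 586, 237 and 26.2 CPM in scaffold and 312, 192 and 8.98 CPM in spleen. It rested on 225, 213 and 70 UMIs on the 3 days. Day 21 against day 7 gave a log2 difference of -4.66 ± 0.34 (edgeR adjusted p = 4.16e-15, with tissue as a block). The 3 libraries of a day are its 3 tissues, so p-values by day measure the spread between tissues, with 4 residual degrees of freedom. Day and library preparation cannot be told apart here either. Tests by day within a class were chosen after the data were seen.
Rtp4 had 213, 121 and 3.64 CPM in lung, 568, 196 and 19.4 CPM in scaffold and 194, 149 and 3.59 CPM in spleen, a log2 difference of -5.07 ± 0.39 (edgeR adjusted p = 1.31e-14). Rsad2 had 57.4, 15.4 and 0.607 CPM in lung, 257, 55.9 and 12.6 CPM in scaffold and 152, 17.2 and 0 CPM in spleen, a log2 difference of -5.15 ± 0.55 (edgeR adjusted p = 3.52e-10).
For these 3 genes every library of day 21 lay below every library of day 7, and the level fell from each day to the next in each tissue. Trim30a was lower on day 21 as well, with 828, 443 and 187 CPM in lung, 678, 279 and 255 CPM in scaffold and 861, 329 and 151 CPM in spleen (-1.77 ± 0.28).
Xaf1 (-4.85), Ifit1 (-4.18), Ddx60 (-3.78 ± 0.40), Slfn5 (-3.76) and Oasl2 (-3.44) also fell. Irf7 had 65.6, 61.5 and 13.4 CPM in lung, 18.3, 14.0 and 14.5 CPM in scaffold, where it rested on 1, 1 and 15 UMIs, and 101, 49.5 and 3.59 CPM in spleen (-2.27 ± 0.52). Stat2 did not pass, with 35.5, 30.8 and 37.0 CPM in lung, 55, 69.8 and 36.8 CPM in scaffold and 84.4, 36.6 and 12.6 CPM in spleen. Bst2 and Ifit3 were near the floor in these cells, with at most 6 UMIs of Bst2 in a library.

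In all, 22 of the 25 genes that passed the filter on low counts were lower on day 21 than on day 7 and 0 higher, where 11% of 4392 genes were lower and 12.5% higher. Without that filter 34 of the 35 genes could be tested, 22 were lower (1.77% of 15247 genes) and 33 of 34 had a negative difference. Between days 14 and 7, 4 were lower (2.46% of all genes), and between days 21 and 14, 16 were lower (5.19%).
The make-up of the class changed with day. Cluster 1 held 366 of 378 neutrophil-like cells of the tumour-bearing lung on day 7, whereas clusters 11 and 15 held 810 and 1254 of 2139 on day 21. Summed markers of neutrophil progenitors in these cells were 1081 to 4498 CPM on day 7 and 11078 to 28661 CPM on day 21, and markers of mature neutrophils 114406 to 159225 CPM and 193263 to 277721 CPM.
Within cluster 1 alone the level was 3331, 2152 and 442 CPM in lung, 4654, 2628 and 1614 CPM in scaffold and 3468, 2034 and 613 CPM in spleen. There 9 of 10 genes with counts enough were lower on day 21 than on day 7 (7.65% of all genes), among them Isg15 (-3.34 ± 0.46), Rtp4 (-2.84) and Ddx60 (-2.69), and 6 of 34 without the filter (0.677%).

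In lung neutrophil-like cells could also be compared between tumour-bearing and healthy mice, on days 7 and 14. Rsad2 had 57.4 and 15.4 CPM in tumour-bearing lungs against 350 and 220 CPM in healthy lungs, a log2 fold change of -2.81 ± 0.64 (edgeR adjusted p = 0.00086). Trim30a had 828 and 443 CPM against 187 and 330 CPM, a log2 fold change of 1.54 ± 0.40 (edgeR adjusted p = 0.0066).
These were the 2 of 17 genes that passed, 1 in each direction, where 2.21% of 2576 genes were higher and 1.24% lower. The healthy values rest on 15 and 8 UMIs of Rsad2 and 8 and 12 UMIs of Trim30a, and without the day block neither passed. This fit held 4 libraries and left 1 residual degree of freedom.

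Monocyte-like cells come from clusters 4 and 7, which differed in level and whose mix shifted with day. Over both clusters the summed level was 2782, 1952 and 1158 CPM in tumour-bearing lungs on days 7, 14 and 21, against 2470, 3177 and 2129 CPM in healthy lungs. It was 3244, 2442 and 1825 CPM in tumour-bearing scaffolds, against 5482, 1820 and 3350 CPM in healthy scaffolds, and 3074, 2084 and 729 CPM in tumour-bearing spleens, against 2887, 1923 and 1495 CPM in healthy spleens.
In the tumour-bearing lung, cluster 4 held 7 of 102 monocyte-like cells on day 7 and 84 of 142 on day 21. Of the cells of cluster 4, 29.3% had a barcode found in more than 1 library of a day, against 9.18% in cluster 7. In the tumour-bearing lung of day 21, 30.5% of all barcodes were shared. The part of shared barcodes in the shift was not tested.
In cluster 7 the level was 2830, 1958 and 908 CPM in tumour-bearing lungs on days 7, 14 and 21, 4316, 3399 and 2566 CPM in scaffolds and 3186, 2135 and 509 CPM in spleens, lower on day 21 in each tissue. In cluster 4 it was 1414, 1145 and 1910 CPM in lungs (7, 4 and 84 cells), 3080, 2245 and 1123 CPM in scaffolds and 2171, 1083 and 2115 CPM in spleens (28, 21 and 50 cells), lower on day 21 than on day 7 in scaffold, close to it in spleen and not lower in lung.
Against healthy mice of day 21, the tumour-bearing value was 908 against 3702 CPM in lung, 2566 against 6792 CPM in scaffold and 509 against 2786 CPM in spleen in cluster 7, where the healthy values rest on as few as 6 cells. Those 6 cells, of the healthy spleen, held 5 UMIs of the list, in a library with 94.9% of its barcodes shared. In cluster 4 the tumour-bearing value was 1910 against 1481 CPM in lung, 1123 against 2719 CPM in scaffold and 2115 against 1316 CPM in spleen. The lower tumour-bearing value was thus seen in cluster 7 in each tissue, and in cluster 4 in scaffold alone, without a test.
Over both clusters, of 18 genes with counts enough, 5 were lower in tumour-bearing mice on day 21 than on day 7 and 0 higher, where 0.467% of 3210 genes were lower and 1.03% higher. They were Isg15 (-2.30 ± 0.47, edgeR adjusted p = 0.0186), Xaf1 (-2.22), Ifi44 (-2.12 ± 0.40), Slfn5 (-1.89) and Ddx58 (-1.89). Within cluster 7 alone 6 of 17 were lower (2.41% of all genes), with Isg15 at -3.05 ± 0.64. A gene could pass the filter on low counts through a single day on which it was high. Without that filter 7 of the 35 genes were lower over both clusters and 0 higher, where 55 of 13887 genes were lower and 63 higher. In cluster 7 without the filter 7 of the 35 were lower, as were 57 of 12719 genes. As in neutrophil-like cells, the libraries of a day are its 3 tissues, and day and library preparation cannot be told apart. These tests too were chosen after the data were seen.
Isg15 had 68.0, 80.3 and 6.81 CPM in monocyte-like cells of tumour-bearing lungs, 168, 201 and 28.8 CPM in scaffolds and 114, 57.9 and 30.9 CPM in spleens. In healthy mice fewer genes had counts enough, and none of these 7 differed between days 21 and 7 (0.378% of all genes). Their median log2 difference was -0.78 with 1 positive, against -1.33 over the 18 genes with the tumour. Without the filter on low counts 28 of the 35 were negative in healthy mice, with a median of -0.58. With the tumour 33 of the 35 were then negative, with a median of -1.16. The test of a difference in slope between statuses called none of 21 (0.242% of all genes). Markers of neutrophils in these cells were 1405 to 2449 CPM on day 7 and 4965 to 22390 CPM on day 21, and their part in the result was not tested.

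The share of cells with 5 or more of the 35 genes depended on depth, and each cell was therefore thinned to 400 UMIs. The share was 2.19%, 3.17% and 0.368% in tumour-bearing scaffolds on days 7, 14 and 21, against 4.52%, 1.34% and 3.46% in healthy scaffolds. In lung it was 1.80%, 0.595% and 0.107% with the tumour, against 0.516%, 0.951% and 0.356% without.
On day 21 the scaffold intervals were 0.120% to 0.857% with the tumour and 2.59% to 4.52% without, which do not overlap (exact binomial 95% intervals, for counting error only). In spleen the share was 0.602%, 0.358% and 0.211% with the tumour, against 0.292%, 0.477% and 0% without, where 0 of 238 cells on day 21 leaves an upper bound of 1.54%. Unthinned, the shares were 25.8%, 22.1% and 7.67% in tumour-bearing scaffolds and 28.3%, 9.97% and 21.5% in healthy scaffolds.
The classes of the thinned cells with 5 or more of the genes were set beside those of all thinned cells. In tumour-bearing lungs 17 of 23 (73.9%) were neutrophil-like, as were 64.0% of all thinned cells. In tumour-bearing scaffolds 30.9% of 55 were macrophage-like, 20% monocyte-like and 18.2% neutrophil-like, against 37.0%, 14.5% and 22.8% of all thinned cells. In healthy scaffolds 26.7% of 101 were macrophage-like and 33.7% monocyte-like, against 43.4% and 19.2% of all thinned cells. In healthy spleens 2 of 6 were neutrophil-like and 2 were B cell-like.

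Other genes of the pathway were read from lists of their own. Of 10 receptor and kinase genes tested, 4 rose in tumour-bearing lungs, where 6.16% of all genes did: Stat3 (1.72), the receptor chain Ifnar2 (1.41), Jak2 (1.36) and the interferon gamma receptor chain Ifngr2 (1.32). Of 14 negative regulators, Socs3 (3.66) and Ptpn1 (1.52) rose in lung (6.16% of all genes) and Socs3 (2.84) in spleen (2.79%).
Of 25 genes of nucleic acid sensing, Myd88 (2.45), Irak4 (1.60), Irf1 (1.59) and Samhd1 (1.46) rose in lung, beside the same 6.16%. Of 69 further interferon-stimulated genes, 5 rose and 1 fell in lung, where 6.16% of all genes rose and 2.91% fell. In scaffold 13 were higher and 3 lower than in lung (10.1% and 10.4% of all genes), and 2 were higher and 22 lower on day 21 than on day 7 (7.99% and 5.68%).
In neutrophil-like cells of tumour-bearing mice 20 of 36 such genes were lower on day 21 than on day 7 and 2 higher (11% and 12.5% of all genes), with Ifi27l2a (-5.81), Cd274 (-4.37) and Gbp2 (-4.28) lowest. The receptor chains Ifnar1 (-1.74), Ifngr2 (-1.14) and Ifnar2 (-0.76) were lower there too. Of the 22 genes of the main list that were lower there, 18 had a promoter window and 11 of these held the ISRE core, against 4 of 9 for the other genes.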

How the data were processed

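The deposited tables, 1 for each of 18 Drop-seq libraries, hold unnormalized UMI counts with genes in rows and barcodes in columns. Per the submitters' processing notes the build was mm10 and Seurat version 2 was used, while for aligner, annotation and cell calling nothing is given in the sources used here. The gene list and all other lists were chosen with earlier results of these data known.

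Cells with 200 or more genes and under 20% mitochondrial UMIs were kept, 24536 of 26397 barcodes. No doublets were removed. Clusters came from scanpy 1.11.5 and leidenalg 0.10.2 (2000 variable genes, 30 components, 15 neighbours, resolution 1) without interferon-stimulated genes. A name needed 3 markers at 1.5 times the level of other cells, a rule set with the clusters in view; 7 clusters stayed unnamed.

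Counts were summed per library, or per library and class of 20 or more cells, and tested with edgeR 4.0.16 (R 4.3.3; TMM, filterByExpr, quasi-likelihood, Benjamini-Hochberg, threshold 0.05); the procedure was tested on simulated data. Tumour effects used tissue and day as a block, since healthy libraries are time-matched. This left 6 residual degrees of freedom over whole libraries and 1 within neutrophil-like cells of lung. Over genes, the deviations of the tumour-bearing and healthy library of a day correlated at 0.184 to 0.633 in 9 pairs. Standard errors are the log2 fold change over the root of F. Tests within a class by day, and within single clusters, were chosen after the data were seen. Alternatives were DESeq2 1.42.0, library totals, no filter on low counts, no block, other barcode and cell rules, and leaving out days.

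Values in full went to genes past the threshold, at most the 8 with the largest change per comparison, or the 3 with the smallest p where none passed, and, in the tumour comparison of every tissue, to Isg15, Ifit3, Irf7, Bst2, Rsad2 and Stat2.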

Additional observations from a re-analysis of the deposited data

Results flagged for a closer look

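For 4 genes the tumour-bearing library lay above the healthy one on all 3 days in 1 tissue and below it on all 3 days in another. Values are means over days of the log2 ratio of CPM + 1. Irf7 differed by 2.23 between lung (1.27) and scaffold (-0.96), and edgeR's test of the difference gave 2.49 ± 0.72 with an adjusted p of 0.461. Oas1a differed by 1.54 between lung (0.93) and scaffold (-0.61), with an edgeR difference of 1.78 ± 0.59 and an adjusted p of 0.484. Parp9, an ADP-ribosyltransferase family member that partners Dtx3l, differed by 1.07 between lung (0.48) and spleen (-0.59), with an edgeR difference of 1.13 ± 0.50 and an adjusted p of 0.477. Cmpk2 differed by -1.42 between scaffold (-1.09) and spleen (0.33), with an edgeR difference of -1.78 ± 0.76 and an adjusted p of 0.648. None of the 4 differences passed the threshold.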

How the results depend on the processing

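Counts are genes of the list past the threshold, with the reported count in brackets. The share of all genes called under each setting is not given here, so the counts do not show whether the list moved apart from other genes. Tumour-bearing against healthy lung (4) gave 2 with library totals, 11 with no filter on low counts, 2 with no replicate block, 2 without the healthy lung and spleen libraries of day 21 and 1 to 4 leaving out each day. The lung-scaffold difference in effect (0) gave 5 with no filter and 1 with DESeq2. Scaffold against lung (12) gave 7 with no replicate block and 2 to 14 leaving out each day, and scaffold against spleen (20) gave 13 and 9 to 20. Lung against spleen (0) gave 1 with no filter, 1 with shared barcodes assigned, 1 with cells of 400 or more genes, 1 without the healthy libraries named, 2 with DESeq2 and 0 to 3 leaving out each day. Day 21 against day 7 (10) gave 1 with shared barcodes assigned and 5 without day 14 (days 7 and 21 cannot be left out of it). The drift of the tumour effect (0) gave 1 with library totals, 3 with no filter, 2 with shared barcodes assigned, 3 with DESeq2 and 0 to 7 leaving out each day.

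Within neutrophil-like cells of lung (2) library totals gave 1 and no replicate block 0. With shared barcodes assigned, more genes had counts enough (28 against 17), and the class counts were 19 (12) in conventional dendritic-like, 18 (11) in macrophage-like, 22 (14) in monocyte-like, 23 (13) in neutrophil-like and 13 (8) in T cell-like cells. Fibroblast-like cells then had 5 (2 higher, 3 lower), against 4 (3 higher, 1 lower) in the fit reported, so the balance of higher and lower reversed. Leaving out each day gave 3 to 8 (8) in alveolar macrophage-like, 6 to 12 (11) in B cell-like, 1 to 3 (3) in endothelial-like, 6 to 15 (12) in neutrophil progenitor-like and 5 to 9 (8) in T cell-like cells. By day, monocyte-like cells of tumour-bearing mice (5) gave 8 with shared barcodes assigned and 3 without day 14, their cluster 7 (6) gave 3, healthy monocyte-like cells (0) gave 1 and healthy macrophage-like cells (1) gave 0 with library totals, with no filter and without day 14.

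The mean share of cells with 5 or more of the genes, thinned to 400 UMIs, was 0.835% and 0.608% in tumour-bearing and healthy lungs, 1.91% and 3.11% in scaffolds and 0.390% and 0.256% in spleens. With 3 or more genes it was 3.50% and 2.64% in lungs, 6.62% and 8.80% in scaffolds and 2.22% and 2.55% in spleens. Thinned to 600 UMIs it was 1.17% in healthy lungs, 3.75% and 6.11% in scaffolds and 0.792% and 1.05% in spleens, and thinned to 300 UMIs 0.231% in healthy lungs. The spleen order of tumour-bearing and healthy means thus turned with these settings.

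The causes of these shifts were not tested, and 259 other values moved by less than the limits used; of the named genes' values, 486 stayed on their side of the threshold, 53 lost it, 11 gained it and 0 changed sign. The shallowest library held 195 UMIs of the list, so genes near 0 there could not be compared.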

Other observations

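Of the classes found in few libraries, erythroid-like cells had a median summed level of 1840 CPM over 2 libraries and fibroblast-like cells 1584 CPM over 5. An unnamed cluster of 2072 cells had 97.3% of its barcodes in more than 1 library.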
